A study of Mus musculus with 7 samples.

Results

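The CD300 genes encode a family of immunoglobulin-type receptors on myeloid cells, and 8 of them were followed here in Tim4+ resident macrophages of the mouse peritoneal cavity. They were the rows of the deposited count table whose gene name was Cd300a, Cd300c, Cd300c2, Cd300e, Cd300lb, Cd300ld, Cd300lf or Cd300lg, 8 of 57010 genes in the table. RNA came from Tim4+ cells sorted from the peritoneal fluid of C57BL/6 mice on CD11b, MHC class II and Tim4, at a stated purity over 97%. There were 4 libraries from mice at day 12 after m204 MTO injection and 3 from mice in steady state (controls), whose labels name no injection. What MTO stands for is not given, and peritoneal colorectal cancer is the subject in the series title. No genotype or age is named for either group. The labels call the RNA preparations biological replicates, without saying whether a library held the cells of 1 mouse or of several, so the p-values rest on the scatter among the 7 libraries, part of which may be technical. The table also lists 4 further genes of the family, Cd300ld2, Cd300ld3, Cd300ld4 and Cd300ld5, which are described beside the 8.

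CD300 receptors come as inhibitory and activating forms that share a similar outer domain. The inhibitory receptors carry tyrosine motifs in the tail that recruit phosphatases such as SHP-1. The activating receptors have short tails and signal through adaptors with activating tyrosine motifs, chiefly DAP12 and the Fc receptor gamma chain. Several members bind lipids that dying cells expose, among them phosphatidylserine, phosphatidylethanolamine and ceramide, and in macrophages they tune the uptake of apoptotic cells and the response to microbial products.

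Total counts ran from 34578834 to 38586694 in the 4 libraries of day 12 and from 32077050 to 36201021 in the 3 of steady state. Levels are given in CPM, read counts divided by the library's total after TMM scaling, and a floor of 3 counts stood for 0.0754 to 0.0870 CPM at day 12 and 0.0840 to 0.0958 CPM in steady state. Such floors, and the counting intervals below, hold for counting error alone, because PCR can copy 1 molecule into several reads. All 10 resident macrophage markers examined passed the filter on low counts in the fit, and 3 of them were called higher, 3 lower and 4 neither. Of all 15981 genes tested, 10.1% were called higher and 10.2% lower, shares that stand beside this count and those below. Timd4, the gene of Tim4, fell to 495 ± 114 CPM at day 12, against 963 ± 80.5 CPM in steady state (SD, n = 4 and 3, edgeR adjusted p = 0.00484). Lyz2, the lysozyme gene, fell to 4621 ± 3764 CPM at day 12, against 42079 ± 819 CPM in steady state, and Csf1r, the receptor of CSF-1, also fell (adjusted p = 0.00523 and 0.0304). Adgre1, the gene of F4/80, rose to 4731 ± 562 CPM at day 12, against 2572 ± 167 CPM in steady state. Gata6, the resident lineage factor, rose to 245 ± 26.3 CPM at day 12, against 175 ± 4.72 CPM in steady state, and Itgam, the gene of CD11b, to 2131 ± 361 CPM at day 12, against 1327 ± 124 CPM in steady state. Markers of some other cells also differed between the groups. Summed over 8 B cell markers the level was 21.2 to 47.3 CPM at day 12 and 6.61 to 10.5 CPM in steady state, with 5 of the 8 called higher and none at 0 in all 7 libraries. Summed over 10 neutrophil markers it was 1.403 to 4.03 CPM at day 12 and 22.1 to 29.7 CPM in steady state, with Ly6g and Mpo at 0 in every library. Mmp9 made up most of that sum in steady state (22.8 ± 4.14 CPM) and averaged 0.899 ± 0.720 CPM at day 12. Of the 3 neutrophil markers tested, 0 were called higher and 2 lower, Mmp8 and Mmp9. S100a8 averaged 1.37 CPM at day 12 and 0.774 CPM in steady state (edgeR adjusted p = 0.0982). S100a9, Ltf, Retnlg and Cxcr2 had reads at day 12 only, and Camp in steady state only. S100a9 had 0, 1, 8 and 29 reads in day 12 replicates 1 to 4, and Ltf had 2, 3, 8 and 8. Summed over 7 dendritic cell markers the level was 65.4 to 379 CPM at day 12 and 29.6 to 54.9 CPM in steady state, with none called in either direction and Siglech at 0 in every library. Cd209a made up most of that sum, at 59.2 to 372 CPM at day 12 and 24.4 to 48.6 CPM in steady state (edgeR adjusted p = 0.0612), while Zbtb46 averaged 5.24 CPM at day 12 and 5.32 CPM in steady state. Summed over 8 epithelial markers the level was 4.30 to 6.34 CPM at day 12 and 2.04 to 2.52 CPM in steady state. Of 3 tested, Cdh1 alone was called higher, and Cdx2 and Krt20 were at 0 in every library. Lck and Gzma were called higher among 3 T and NK cell markers tested, and Siglecf among 2 eosinophil markers tested. Hdc, the only mast cell marker tested, was called higher too. None of these markers was called lower. Over 11 genes of handling stress the sum was 1165 to 1409 CPM at day 12 and 782 to 1076 CPM in steady state, 7 of them higher and 2 lower. The 7 were Fos, Fosb, Egr1, Junb, Ier2, Nr4a1 and Atf3. The 2 were the heat shock genes Hspa1a and Hspa1b, with log2 fold changes of -1.86 and -2.09, so the sum hides opposite directions. The part of these markers and stress genes in the results below was not tested. In RNA from a sorted population, a smaller share of cells that express a gene and less of its RNA per cell cannot be told apart.

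Members of the family differed between day 12 and steady state in both directions. The inhibitory receptor gene Cd300lf rose 10.5-fold and the activating receptor gene Cd300ld rose 1.36-fold, while Cd300lb and Cd300lg fell by 0.38 and 0.42 on the log2 scale. Cd300a and Cd300c2 did not pass the test, and Cd300e and Cd300c were too low to enter it. So 2 of the 6 tested members rose and 2 fell at an edgeR quasi-likelihood adjusted p under 0.05, where 10.1% and 10.2% of all 15981 genes tested rose and fell (20.3% in all). The direction of all genes was balanced after TMM scaling, with 1616 higher and 1626 lower and a median log2 fold change of 0.0031. Such scaling centres the log ratios of most genes, so this balance is in part set by it. With a steady-state library left out there were fewer calls, 961 higher and 907 lower without the first, 900 and 904 without the second, and 857 and 904 without the third. Outside the 8 members, all of Cd300ld2, Cd300ld3, Cd300ld4 and Cd300ld5 fell, by 1.37 to 2.22 on the log2 scale.

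**Figure D1:**
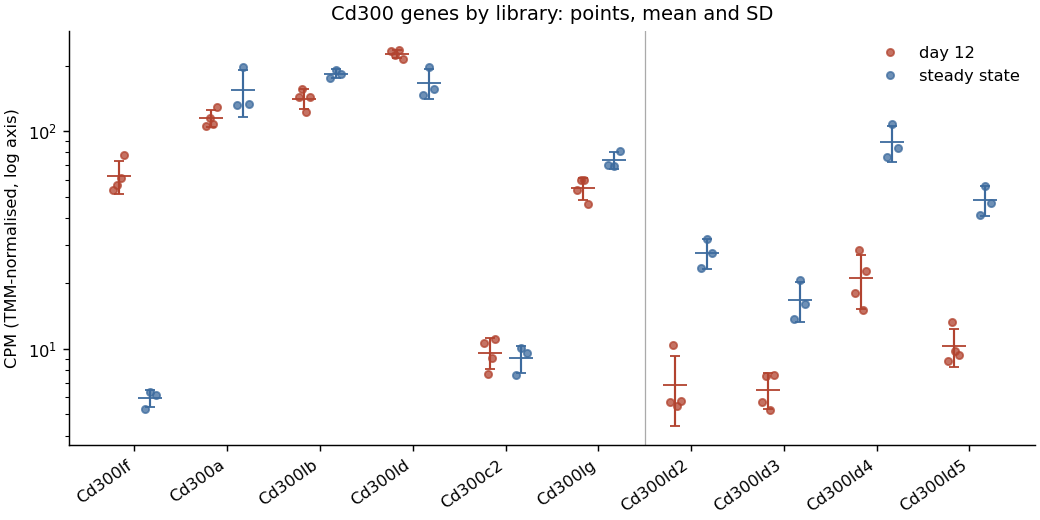
Levels of the 10 tested Cd300 genes in each library, in CPM on a log axis, with day 12 (red) left of steady state (blue). Points are libraries and bars are mean and SD (n = 4 and 3). Cd300lf stood at 53.7 to 77.8 CPM at day 12 and 5.31 to 6.36 CPM in steady state, and the 4 copies to the right of the line were lower at day 12 without overlap.

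Of the inhibitory receptors, Cd300lf is a lipid receptor that binds ceramide and phosphatidylserine and is the entry receptor of murine norovirus in mice. The gene (ENSMUSG00000047798, minus strand, chromosome 11, 115007040 to 115024818 in GRCm39) had 53.7, 56.7, 61.0 and 77.8 CPM in day 12 replicates 1 to 4, against 5.31, 6.36 and 6.16 CPM in steady-state replicates 1 to 3. Every day 12 library was thus far above every steady-state library, and replicate 4 was the highest of the 4. The log2 fold change was 3.39 (SE 0.17, 95% interval 3.02 to 3.76, edgeR adjusted p = 1.24e-05), and it lay between 3.27 and 3.47 with any of the 7 libraries left out. By p-value the gene ranked 6th of the 15981 tested, and 171 genes (1.07%) were called higher with a rise at least as large. Its whole span lies inside Rab37 on the opposite strand, whose highest count in any library was 4. Of the 5435 different stretches of 100 bases in its annotated transcripts, 35 (0.644%) also occur in those of another gene, all in Cd300ld.

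Cd300a, the other inhibitory receptor, binds phosphatidylserine and phosphatidylethanolamine. It (ENSMUSG00000034652, plus strand, chromosome 11, 114780867 to 114795480) had 106, 115, 108 and 129 CPM in day 12 replicates 1 to 4, against 131, 197 and 133 CPM in steady-state replicates 1 to 3. The day 12 libraries were all below those of steady state, by a narrow margin between day 12 replicate 4 and steady-state replicate 1, and steady-state replicate 2 stood well above the rest. The log2 fold change was -0.43 (95% interval -0.78 to -0.07) and did not pass (edgeR adjusted p = 0.0867). It was -0.21 without steady-state replicate 2 (adjusted p = 0.348). Cd300lf reads were 0.494 to 0.602 times the Cd300a reads in the day 12 libraries, against 0.0322 to 0.0463 times in those of steady state, a ratio within each library that needs no scaling between libraries.

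The annotated start of Cd300lf is shown for its position beside those of the Cd300ld genes, whose direction of change differed among themselves. The sequences are from RefSeq (GRCm38.p6, another build than that of the count table), each 300 bases from 250 before to 50 after the start, read 5′ to 3′ on the minus strand of the gene. Capitals mark GAGGAAGT, letters of the kind that the macrophage factor PU.1 binds. Such windows were found for 7 of the 8 members and for 3 of the other 4 genes.
Cd300lf, chr11:115133943-115134242: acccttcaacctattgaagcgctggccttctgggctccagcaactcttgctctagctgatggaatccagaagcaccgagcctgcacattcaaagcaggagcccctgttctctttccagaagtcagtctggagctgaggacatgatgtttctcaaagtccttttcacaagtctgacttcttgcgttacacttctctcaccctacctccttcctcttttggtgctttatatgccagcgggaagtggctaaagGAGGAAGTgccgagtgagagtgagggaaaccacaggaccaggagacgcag
Cd300ld, chr11:114989837-114990136: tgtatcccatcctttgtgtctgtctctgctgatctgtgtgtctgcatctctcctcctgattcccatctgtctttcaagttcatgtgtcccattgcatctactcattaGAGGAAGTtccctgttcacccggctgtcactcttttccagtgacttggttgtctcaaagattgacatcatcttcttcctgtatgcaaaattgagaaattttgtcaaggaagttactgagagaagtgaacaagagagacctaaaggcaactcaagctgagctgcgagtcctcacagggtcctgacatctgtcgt
Cd300ld4, chr11:115026884-115027183: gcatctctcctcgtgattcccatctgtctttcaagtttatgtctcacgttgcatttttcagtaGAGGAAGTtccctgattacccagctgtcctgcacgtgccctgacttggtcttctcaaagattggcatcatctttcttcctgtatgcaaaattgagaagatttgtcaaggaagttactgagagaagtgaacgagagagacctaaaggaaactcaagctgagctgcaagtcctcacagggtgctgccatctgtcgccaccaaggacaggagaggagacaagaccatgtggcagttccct
Cd300ld3, chr11:115048281-115048580: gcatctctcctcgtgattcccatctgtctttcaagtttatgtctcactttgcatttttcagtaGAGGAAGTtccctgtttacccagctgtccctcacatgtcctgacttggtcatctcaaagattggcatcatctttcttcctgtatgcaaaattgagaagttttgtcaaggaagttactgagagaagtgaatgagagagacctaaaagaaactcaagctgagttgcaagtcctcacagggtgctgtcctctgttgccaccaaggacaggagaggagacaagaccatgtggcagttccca
The window of Cd300ld5 was identical to that of Cd300ld4 in all 300 bases. Cd300ld3 matched Cd300ld4 at 285 of 299 aligned bases (95.3%), and Cd300ld matched it at 225 of 255 (88.2%), although Cd300ld rose and the other genes fell. The letters GAGGAAGT, searched on either strand, were found in Cd300lf from position 1, the start itself, in Cd300ld from position -143 and in Cd300ld3, Cd300ld4 and Cd300ld5 from position -187. Over all 32851 promoter windows 3.20% held them, and the windows of Cd300a, Cd300lb, Cd300c, Cd300c2 and Cd300e did not. In Cd300ld, Cd300ld3, Cd300ld4 and Cd300ld5 the letters sit in the same matching stretch, at different distances from the annotated starts. Those matches are thus not independent of each other. The E-box CACGTG was found in Cd300ld4 and Cd300ld5 and in none of the other windows of the family, against 7.15% of all windows. Searches for a STAT site (TTCNNNNGAA, 6.95% of all windows) and for an AP-1 site (TGANTCA, 7.81%) found no match in the 10 windows. GAAANNGAAA, letters of an interferon response element (3.44% of all windows), matched in Cd300c and Cd300c2 only. The form TTCNNNGAA (8.30%) matched in Cd300e only, and TTGCNNCAA, letters of a C/EBP site (2.08%), in none of the 10.

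Among the activating receptors, Cd300ld signals through the Fc receptor gamma chain. It (ENSMUSG00000034641, minus strand, chromosome 11, 114873100 to 114880748) had 233, 224, 236 and 215 CPM in day 12 replicates 1 to 4, against 147, 198 and 156 CPM in steady-state replicates 1 to 3. The 4 day 12 values were close together and all above those of steady state, where replicate 2 again was the highest. The log2 fold change was 0.44 (SE 0.12, edgeR adjusted p = 0.0329). It did not pass when steady-state replicate 1 or 3 was left out (adjusted p = 0.133 and 0.147), nor on leaving out day 12 replicate 1 or 3 (0.0672 and 0.0663). Cd300lb, which pairs with DAP12 and takes part in the uptake of apoptotic cells, moved the other way (ENSMUSG00000063193, minus strand, chromosome 11, 114813607 to 114825212). It had 143, 157, 122 and 143 CPM in day 12 replicates 1 to 4, against 175, 192 and 184 CPM in steady-state replicates 1 to 3, again without overlap. Its log2 fold change of -0.38 (SE 0.11, adjusted p = 0.0385) did not pass without steady-state replicate 1, 2 or 3 (adjusted p = 0.107, 0.148 and 0.121), on leaving out day 12 replicate 1 (0.0864) or 3 (0.0829), with no filter on low counts (0.0545) or with a filter of 1 CPM (0.0522).

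Cd300c2, known in mice as an activating receptor that pairs with DAP12, was low and level (ENSMUSG00000044811, minus strand, chromosome 11, 114887547 to 114895058). It had 10.6, 7.69, 9.10 and 11.1 CPM in day 12 replicates 1 to 4, against 7.62, 10.1 and 9.55 CPM in steady-state replicates 1 to 3. The groups overlapped, and the log2 fold change of 0.09 had a 95% interval of -0.30 to 0.47 (edgeR adjusted p = 0.772). Cd300e, which in humans is an activating receptor of monocytes (ENSMUSG00000048498, minus strand, chromosome 11, 114942743 to 114957500), had 0, 1, 0 and 7 reads in day 12 replicates 1 to 4, against 11, 19 and 2 reads in steady-state replicates 1 to 3. Pooled over libraries that was 0.0533 CPM at day 12 (exact 95% counting interval 0.0230 to 0.105) and 0.318 CPM in steady state (0.217 to 0.448). The libraries overlapped, and with no filter on low counts the gene did not pass (edgeR adjusted p = 0.154). Over 6 monocyte markers the summed level was 32.9 to 197 CPM at day 12 and 54.7 to 64.1 CPM in steady state, with none at 0 in all 7 libraries. Plac8 was called higher, at 4.10 to 143 CPM at day 12 and 0.476 to 1.07 CPM in steady state, and Ccr2 lower, at 5.19 ± 1.99 CPM at day 12 and 11.8 ± 1.23 CPM in steady state (edgeR adjusted p = 0.0176 and 0.0114). The part of monocyte markers in the counts of Cd300e was not tested. Cd300c (ENSMUSG00000058728, minus strand, chromosome 11, 114846942 to 114859983) had 3 reads over the 4 day 12 libraries and 0 over the 3 of steady state, at the floor of detection in each group.

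Cd300lg encodes nepmucin, a mucin-like member known from the endothelium of blood vessels. It lies apart from the other members on the same chromosome (ENSMUSG00000017309, plus strand, chromosome 11, 101932335 to 101946446). It had 53.9, 59.8, 59.6 and 46.3 CPM in day 12 replicates 1 to 4, against 69.8, 69.4 and 81.2 CPM in steady-state replicates 1 to 3. All day 12 libraries were below all of steady state, and the log2 fold change was -0.42 (SE 0.12, edgeR adjusted p = 0.0355). It did not pass when steady-state replicate 1, 2 or 3 (adjusted p = 0.0967, 0.0817 and 0.155) or day 12 replicate 1 (0.0900) was left out. Over 10 endothelial markers the summed level was 5.66 to 15.2 CPM at day 12 and 2.19 to 2.49 CPM in steady state. Of these markers Cldn5 and Emcn had no read in any library, and Cdh5 averaged 0.0470 CPM at day 12 and 0 in steady state. Most of the day 12 sum was Pecam1, with 7.81 ± 4.20 CPM, against 1.17 ± 0.327 CPM in steady state. Pecam1 was called higher (edgeR adjusted p = 0.00224), and Vwf, the other marker tested, was not called. The part of endothelial cells in the counts of Cd300lg was not tested. Groups without overlap were thus seen in 5 of the 6 tested members, 2 with day 12 above and 3 with day 12 below, where 16.5% of all genes tested lay above and 18.5% below (35% in all).

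The 4 genes named Cd300ld2 to Cd300ld5 lie side by side between Cd300c2 and Cd300e and are near copies of each other. The coding sequences of Cd300ld4 and Cd300ld5 match at 734 of 735 bases and those of Cd300ld3 and Cd300ld4 at 731 of 735, in GENCODE M21 (GRCm38). Cd300ld2 matches Cd300ld4 at 97.0% of aligned bases, and Cd300ld at 86.9%. The first 90 coding bases show how little separates them. Capitals mark bases that differ from Cd300ld.
Cd300ld: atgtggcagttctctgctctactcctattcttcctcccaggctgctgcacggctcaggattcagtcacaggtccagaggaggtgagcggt
Cd300ld2: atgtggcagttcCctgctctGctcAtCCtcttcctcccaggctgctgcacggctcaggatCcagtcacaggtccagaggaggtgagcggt
Cd300ld3: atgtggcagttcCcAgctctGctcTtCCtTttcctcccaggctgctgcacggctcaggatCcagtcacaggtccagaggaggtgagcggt
Cd300ld4: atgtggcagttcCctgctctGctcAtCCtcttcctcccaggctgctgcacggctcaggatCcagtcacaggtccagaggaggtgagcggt
Cd300ld5: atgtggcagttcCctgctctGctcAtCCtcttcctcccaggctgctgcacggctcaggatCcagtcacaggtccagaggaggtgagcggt
In this stretch Cd300ld2, Cd300ld4 and Cd300ld5 each differ from Cd300ld at 6 bases and Cd300ld3 at 8. The reads were 100 bases long. Of the stretches of 100 bases in each gene's annotated transcripts, 100% of those of Cd300ld5 also occur in another gene, as do 86.7% for Cd300ld4, 80.9% for Cd300ld3 and 16.2% for Cd300ld2, always in other genes of this group of 4. How reads were split among these genes is therefore uncertain, and their sum does not depend on that split. Cd300ld5, with no stretch of its own, was still given 322 to 2011 reads per library. Reads that match several genes may have been counted once, more than once or dropped, which is not given. The level of the sum, and ratios and shares that use it, depend on that choice. Cd300ld itself shared 1.37% of its stretches, all with Cd300lf, and none with the 4 copies.

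**Figure D2:**
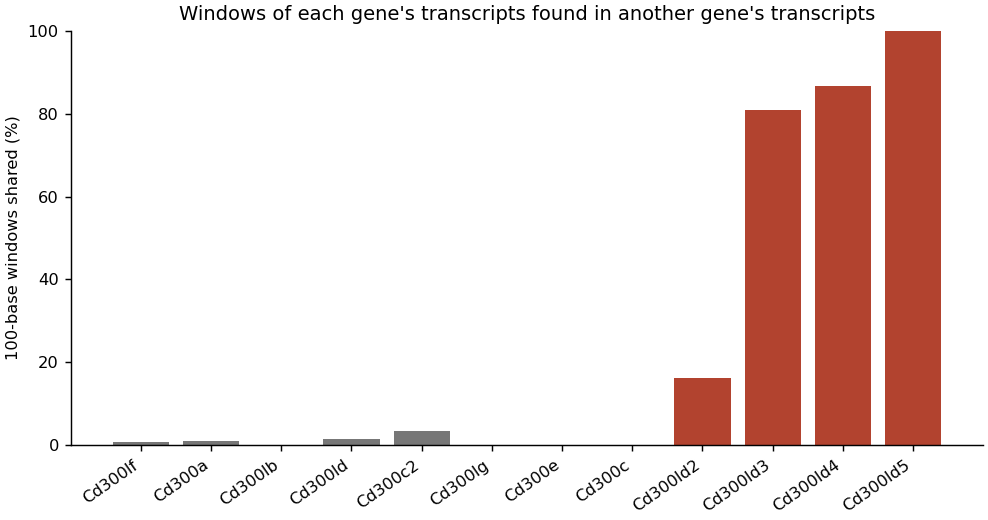
Share of the 100-base stretches in each gene's annotated transcripts (GENCODE M21) that also occur, on either strand, in transcripts of another gene, in percent. The 4 copies (red) reached 16.2% to 100%, while no other gene of the family (grey) exceeded 3.23%.

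Summed over the 4 copies, the level was 38.2, 59.9, 35.6 and 45.5 CPM in day 12 replicates 1 to 4, against 154, 217 and 174 CPM in steady-state replicates 1 to 3. The highest day 12 library, replicate 2, was still well below the lowest of steady state. With the 4 copies entered in the fit as 1 row, a setting chosen after the data were seen, the log2 fold change was -2.02 (SE 0.19, 95% interval -2.46 to -1.59, edgeR adjusted p = 0.000220). It stayed between -2.16 and -1.88 with any of the 7 libraries left out (adjusted p = 0.000207 to 0.00224). As separate rows, Cd300ld4 averaged 21.1 ± 5.91 CPM at day 12 and 89.1 ± 16.8 CPM in steady state. Cd300ld5 averaged 10.3 ± 2.06 CPM at day 12 and 48.2 ± 7.59 CPM in steady state. The smaller counts were those of Cd300ld2, with 6.85 ± 2.42 CPM at day 12 and 27.7 ± 4.34 CPM in steady state, and of Cd300ld3, with 6.50 ± 1.21 CPM at day 12 and 16.8 ± 3.50 CPM in steady state. The log2 fold changes of Cd300ld4, Cd300ld5, Cd300ld2 and Cd300ld3 were -2.08, -2.22, -2.01 and -1.37 (adjusted p = 0.000329, 8.93e-05, 0.000612 and 0.00135), where 10.2% of all genes tested fell. Within the sum Cd300ld4 took 42.3% to 50.1% of the reads at day 12 and 48.0% to 49.7% in steady state, while Cd300ld3 took 12.5% to 16.6% at day 12 and 8.94% to 9.52% in steady state. Reads of Cd300ld outnumbered those of the 4 copies 3.74 to 6.63 times in the day 12 libraries, whereas in steady state there were 0.896 to 0.955 reads of it for each of theirs.

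Levels of different genes were compared per length, as CPM per kb of annotated exon. At day 12 Cd300ld was the highest of the members with 85.7 ± 3.54 CPM per kb, followed by Cd300lb with 48.5 ± 4.93. Cd300a (24.2 ± 2.21) and Cd300lg (20.1 ± 2.32) came next, and their ranges of 22.4 to 27.3 and 16.9 to 21.8 CPM per kb lay close together. Cd300lf reached 12.1 ± 2.09 CPM per kb at day 12, above Cd300c2 with 7.55 ± 1.22. In steady state Cd300ld (63.2 ± 10.2) and Cd300lb (63.0 ± 2.91) did not differ beyond their spread, and neither did Cd300a (32.5 ± 7.94) and Cd300lg (26.8 ± 2.46). Cd300c2 (7.11 ± 1.01) stood above Cd300lf (1.15 ± 0.109 CPM per kb) there, the lowest of the 6 tested members. As a share of the summed CPM per kb of all 12 family genes, Cd300lf made up 4.06% to 6.01% at day 12 and 0.263% to 0.306% in steady state, and Cd300ld 31.3% to 37.8% at day 12 and 15.1% to 15.9% in steady state. The 12 genes include the 4 copies, so the lower level of the copies at day 12 by itself raises the shares of the others. The annotated models of the 4 copies are short (852 to 918 bases of exon), while that of Cd300lf joins 7 transcripts over 5149 bases. Levels and shares by length thus depend on the annotation. In plain reads, the 4 copies made up 5.63% to 8.81% of family reads at day 12 and 22.3% to 24.4% in steady state. The 12 genes together held 631 to 680 CPM at day 12 and 691 to 891 CPM in steady state, and the 8 members 595 to 623 CPM at day 12 and 537 to 674 CPM in steady state.

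**Figure D3:**
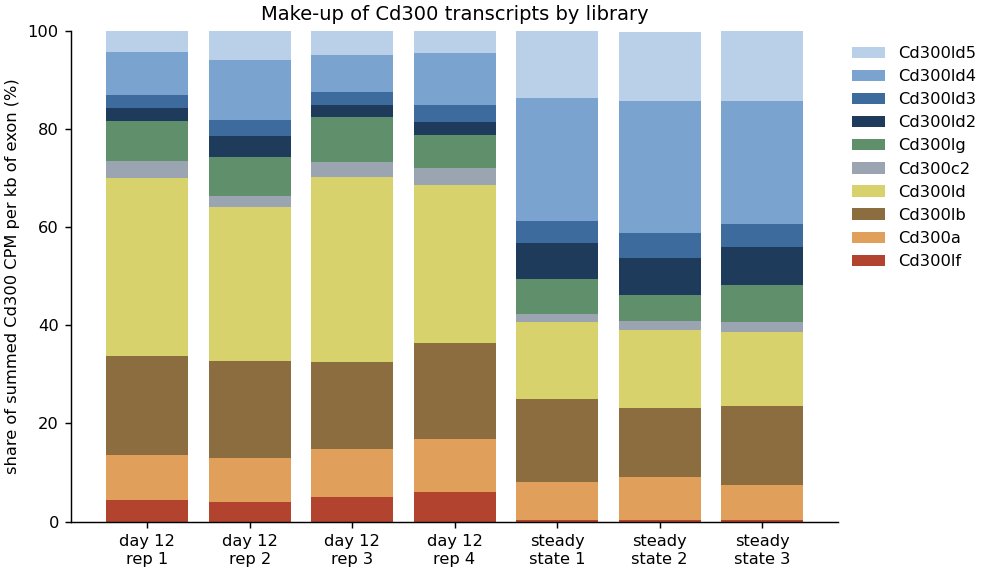
Share of each of the 10 tested Cd300 genes in the summed CPM per kb of exon of the family, in percent, by library, day 12 on the left. Cd300ld made up 31.3% to 37.8% of the sum at day 12 and 15.1% to 15.9% in steady state. The sum includes the 4 copies, whose blue bands were narrower in every day 12 library.

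On the chromosome, 7 of the members and the 4 copies lie within 244 kb (114780867 to 115024818), all but Cd300a on the minus strand. Within 250 kb on either side, 11 genes outside the family were tested, of which 2 rose and 1 fell, where 10.1% of all genes tested rose and 10.2% fell. Ttyh2 averaged 3.80 ± 1.68 CPM at day 12 and 0.710 ± 0.354 CPM in steady state (log2 fold change 2.42, edgeR adjusted p = 0.00677), and Fads6 averaged 3.01 ± 0.300 CPM at day 12 and 1.07 ± 0.473 CPM in steady state (1.49, adjusted p = 0.0115). Gprc5c averaged 0.243 ± 0.148 CPM at day 12 and 1.097 ± 0.656 CPM in steady state (-2.15, adjusted p = 0.0253). Gprc5c did not pass on leaving out steady-state replicate 2 or 3 (adjusted p = 0.0775 and 0.129) or day 12 replicate 1 (0.0598). Slc9a3r1, the first tested gene beyond Cd300lf, averaged 87.7 ± 16.9 CPM at day 12 and 90.4 ± 5.91 CPM in steady state (95% interval of the log2 fold change -0.38 to 0.29). Cd300lf and the 4 copies, which changed in opposite directions, are separated by Cd300e, which was not tested.

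**Figure D4:**
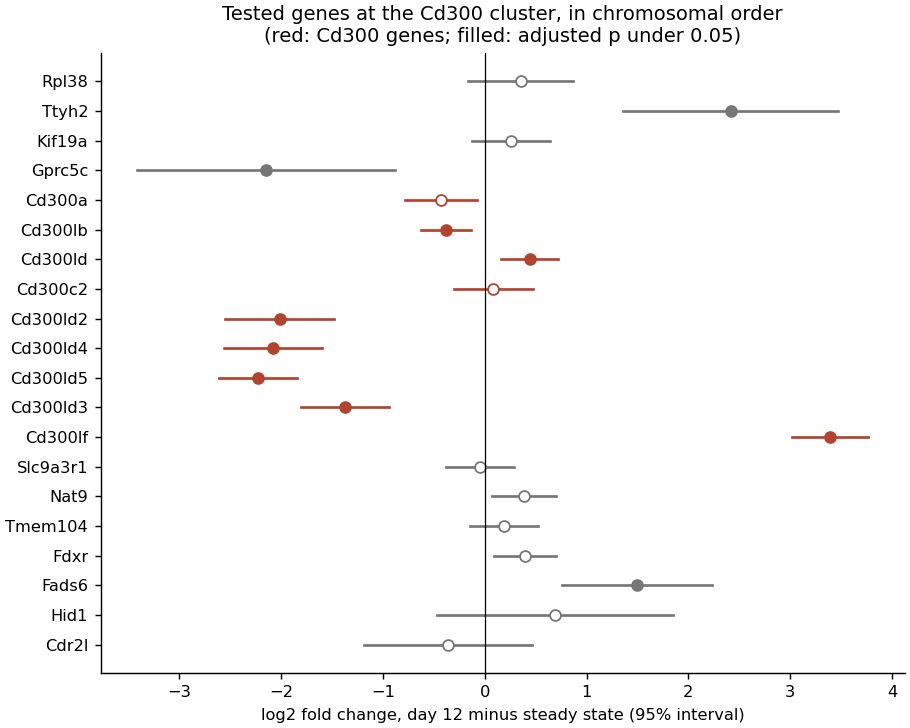
Log2 fold change with its 95% interval (day 12 minus steady state) of the 20 tested genes at the cluster, from top to bottom in chromosomal order. Cd300 genes are red and filled points passed an adjusted p of 0.05. Cd300lf at 3.39 follows directly after the 4 copies at -2.22 to -1.37.

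Some genes of the machinery through which these receptors signal differed in RNA level between the groups. Of 22 activating adaptors and kinases, all tested, 5 rose and 3 fell, beside 10.1% and 10.2% of all genes tested, with a median log2 fold change of -0.014 against 0.0031 over all genes. The adaptor genes of the activating receptors did not pass. Tyrobp, which encodes DAP12, averaged 587 ± 76.8 CPM at day 12 and 615 ± 30.9 CPM in steady state, and Fcer1g, the Fc receptor gamma chain, averaged 267 ± 33.2 CPM at day 12 and 234 ± 13.1 CPM in steady state (edgeR adjusted p = 0.757 and 0.295; both genes were chosen after their values were seen). The kinase gene Fgr rose to 294 ± 30.3 CPM at day 12, against 127 ± 5.89 CPM in steady state (log2 fold change 1.21, adjusted p = 0.000223), and Src to 6.46 ± 1.66 CPM at day 12, against 2.23 ± 0.437 CPM in steady state (1.54, adjusted p = 0.00355). Lat2, a scaffold of activating receptors, fell to 44.6 ± 6.84 CPM at day 12, against 86.6 ± 0.933 CPM in steady state, and Pik3cg, a catalytic subunit of PI3 kinase, to 53.1 ± 7.18 CPM at day 12, against 99.7 ± 6.93 CPM in steady state. The 5 rises became 2, 3 and 2 without steady-state replicates 1, 2 and 3, and the 3 falls became 5 without day 12 replicate 4. Of 12 phosphatases and docking proteins of inhibitory receptors, edgeR called 0 in either direction. At an unadjusted p under 0.05 there were 0 higher and 1 lower, with DESeq2 0 and 1, and with limma-voom 0 and 0. Their median log2 fold change was -0.042, and 2 were called lower without day 12 replicate 4. The lowest p among them belonged to Dok2, at 62.1 ± 27.9 CPM at day 12 and 105 ± 6.52 CPM in steady state (adjusted p = 0.116). Ptpn11, which encodes SHP-2, averaged 85.1 ± 3.98 CPM at day 12 and 89.7 ± 3.39 CPM in steady state. Inpp5d, which encodes SHIP-1, averaged 219.9 ± 14.6 CPM at day 12 and 232 ± 13.7 CPM in steady state, and Cblb, a ubiquitin ligase, 44.9 ± 6.44 CPM at day 12 and 48.7 ± 6.63 CPM in steady state.

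The next 2 lists hold receptors reported to act together with CD300 proteins and receptors that bind phosphatidylserine; Timd4 is in both. Of 9 tested partner receptors, 2 rose and 1 fell (median log2 fold change 0.18), beside 10.1% and 10.2% of all genes. Fcgr2b, the inhibitory Fc receptor, rose to 1303 ± 275 CPM at day 12, against 515 ± 53.9 CPM in steady state (log2 fold change 1.34, edgeR adjusted p = 0.00123). Tlr4, the receptor for lipopolysaccharide, rose to 181 ± 41.5 CPM at day 12, against 89.96 ± 3.24 CPM in steady state (1.01, edgeR adjusted p = 0.00498). Timd4, given above, was the gene that fell, and its protein was among those the cells were sorted on. Il2rg, the common gamma chain, averaged 149 ± 22.7 CPM at day 12 and 111 ± 7.28 CPM in steady state and did not pass (adjusted p = 0.0533). The 2 rises became 4 without day 12 replicate 4 and with DESeq2. Of 15 tested phosphatidylserine receptors and bridging proteins, 2 rose and 7 fell (median -0.57), again beside 10.1% and 10.2% of all genes. The genes that rose were the receptor kinases Axl, at 213 ± 56.3 CPM at day 12 and 63.3 ± 28.9 CPM in steady state, and Mertk, at 228 ± 20.5 CPM at day 12 and 164 ± 15.2 CPM in steady state (edgeR adjusted p = 0.0104 and 0.0189; named after their values were seen). Itgb3, the integrin beta 3 chain, fell to 8.03 ± 2.68 CPM at day 12, against 66.4 ± 9.38 CPM in steady state, and Stab1, the receptor stabilin-1, to 55.1 ± 20.7 CPM at day 12, against 405 ± 132 CPM in steady state. The bridging protein genes Mfge8 and Gas6 fell by 1.34 and 2.39 on the log2 scale (adjusted p = 0.00188 and 0.00248). The 2 rises became 1 without steady-state replicate 1 or 3.

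Of 25 tested enzymes in the metabolism of sphingomyelin and of ceramide, a lipid that Cd300lf binds, 2 rose and 8 fell. Their median log2 fold change was -0.097, and 10.1% of all genes tested rose and 10.2% fell. Sgms2, a sphingomyelin synthase, fell to 2.28 ± 0.710 CPM at day 12, against 18.6 ± 1.47 CPM in steady state (log2 fold change -3.02, edgeR adjusted p = 9.06e-05). Cers4, a ceramide synthase, fell to 0.634 ± 0.587 CPM at day 12, against 7.75 ± 0.445 CPM in steady state (adjusted p = 0.00191). Ugcg, the glucosylceramide synthase, rose to 79.8 ± 11.6 CPM at day 12, against 35.5 ± 3.03 CPM in steady state (1.17, adjusted p = 0.000591). Sphk1, a sphingosine kinase, rose to 2.28 ± 0.981 CPM at day 12, against 0.0478 ± 0.0432 CPM in steady state, which is below the floor of 3 counts. The 8 falls became 3 on leaving out any of the steady-state libraries, and 4 on leaving out day 12 replicate 1, and the 2 rises became 4 without day 12 replicate 4.

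**Figure D5:**
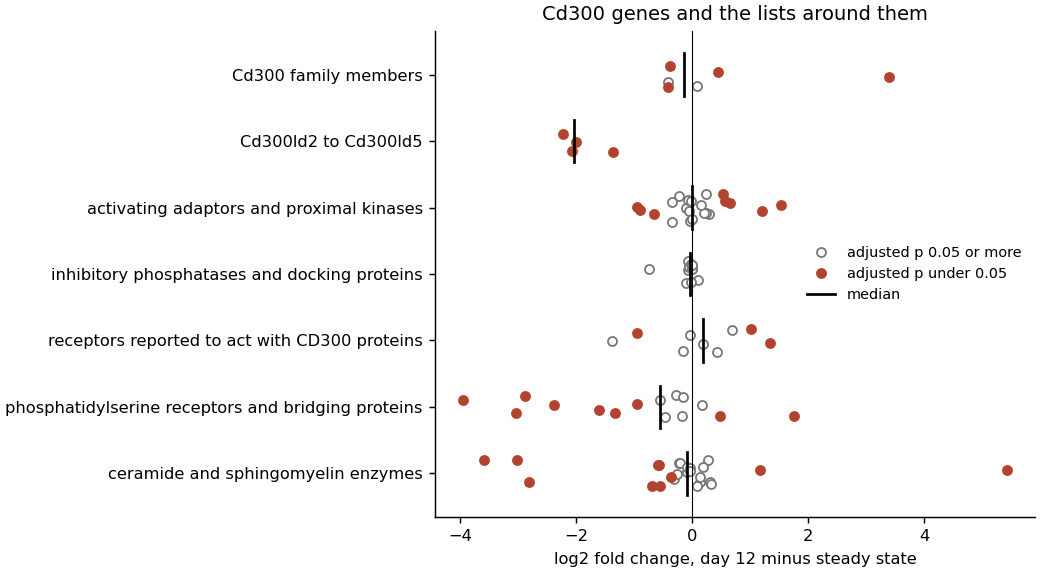
Log2 fold changes (day 12 minus steady state) of the tested Cd300 genes and of the genes in the 5 lists around them, each point a gene and each black bar a median. Red points passed an adjusted p of 0.05. Cd300lf at 3.39 stands apart from the other members, which lie between -0.43 and 0.44.

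The profile of each member over the 7 libraries was set beside those of tested protein-coding genes outside the family, by Pearson's r of log2 CPM. Genes without a name, or with a provisional Gm or Rik name, were left out. The genes nearest to Cd300lf were Mefv, the gene of pyrin (r = 0.9995), Vps53 (0.998) and Htt (0.997). Those nearest to Cd300ld were Card6, Erc2 and Pyurf (0.996, 0.992 and 0.987), and those nearest to Cd300lb were Mtus1, Cdk14 and Lpar6 (0.995, 0.993 and 0.989). Cd300a was nearest to Dock4 (0.979) and Cd300lg to Podxl (0.989). For Cd300c2 the highest value was 0.969, with Slc27a3. These values were picked as the highest over all such genes, the 7 libraries fall into 2 groups, and any gene pair that differs between the groups shares that step. Within the family, r was -0.95 between Cd300lf and Cd300ld4 and 0.992 between Cd300ld3 and Cd300ld4, which share reads.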

How the data were processed

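The authors deposited a table of raw read counts per gene for 7 poly-A libraries, with no normalisation, Ensembl identifiers and genome positions. Per the submitters' processing notes, the build was GRCm39, and the tools named include STAR 2.7.11a and featureCounts from Subread 2.0.6, beside FastQC, DESeq2 1.40.2 and SAMtools 1.10. Not given in the sources used here are the annotation release, the strand setting and how multi-mapping reads were counted, which could change the counts of near-identical copies. Per the labels' protocols, 30 ng of total RNA went into directional libraries read as single ends. The extract protocol speaks of 3 replicates per condition, while the titles give 4 for day 12. Groups came from the titles, and columns were mapped by library name.

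Counts were fitted with edgeR 4.0.16 (TMM, robust quasi-likelihood test, R 4.3.3) with the group as the only term, after filterByExpr (minimum count 10, minimum total 15), and p-values were adjusted by Benjamini-Hochberg over all 15981 genes tested, with calls at 0.05. Each standard error is the fold change over the square root of F. DESeq2 1.42.0, limma-voom 3.58.1, other scalings and filters, each library left out and a replicate block were the alternatives. Exon lengths, coding sequences and transcript stretches of 100 bases came from GENCODE M21 (GRCm38), promoter windows from RefSeq (GRCm38.p6), and the table's coordinates are GRCm39. Exact matches alone were counted.

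Members and lists were chosen with earlier results of these data known. Named genes were the 8 members, other tested genes named Cd300 or within 250 kb of the cluster, the 4 list genes with the lowest p in each list and the 3 nearest profiles of each member. Log2 CPM for profiles used a prior count of 2.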

Additional observations from a re-analysis of the deposited data

Results flagged for a closer look

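Among 42 genes examined in the 4 day 12 libraries, a single library stood apart from the other 3 in 5, where chance flags about 1 in 20. Cd300ld2 was at 10.5 CPM in day 12 replicate 2, against 5.44 to 5.77 CPM in the others, and Cers4 at 1.51 CPM in the same library, against 0.265 to 0.447 CPM. Day 12 replicate 4 was apart for 3 genes. Cd300e stood there at 0.203 CPM (7 reads), against 0 to 0.0251 CPM in the others. Tlr4 was lowest there at 119.6 CPM, against 198.8 to 208 CPM, and Pik3cg at 42.3 CPM, against 56.5 to 56.8 CPM. Apart from this rule, mitochondrial genes held 0.858% of the counts of day 12 replicate 4. They held 1.665% to 1.788% in the other day 12 libraries and 1.109% to 1.248% in steady state. Without day 12 replicate 4, 2188 genes were called higher and 2411 lower.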

How the results depend on the processing

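Cd300lf and the 4 copies Cd300ld2 to Cd300ld5 kept their direction and their call under every alternative run. With 1 library left out, members called higher numbered 1 to 2 and members called lower 0 to 2, against 2 and 2 in the fit as reported. Members called lower numbered 1 when low counts were not filtered, and 1 when at least 1 CPM was required in 3 libraries, a setting that gave no value for Gprc5c. All genes called higher ranged from 857 to 2188 and lower from 904 to 2411 with 1 library left out. Over the same fits, activating adaptors and kinases had 2 to 6 higher and 2 to 5 lower, inhibitory phosphatases 0 to 2 lower, partner receptors 2 to 4 higher, phosphatidylserine receptors 1 to 2 higher, and ceramide enzymes 2 to 4 higher and 3 to 8 lower. With DESeq2, partner receptors had 4 higher and inhibitory phosphatases 1 lower. Replicate numbers are not stated to mark a shared day or litter. Deviations from the group means correlated across genes at -0.141, 0.00775 and 0.203 for same-numbered libraries. For differently numbered libraries the values ran from -0.201 to 0.191. With so few libraries these correlations cannot decide whether the numbers pair the libraries. The replicate block, which leaves out day 12 replicate 4, gave 1979 genes higher and 2267 lower. It called 3 members lower, Cd300a being added (adjusted p = 0.0322), 5 activating adaptors and kinases lower, 1 inhibitory phosphatase lower, 4 partner receptors higher, 1 phosphatidylserine receptor higher and 4 ceramide enzymes higher. Where calls changed, the cause was not tested. Cd300e and Cd300c had too few reads for the filter, which limits what can be said of them.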
